A study of Mus musculus with 15 samples.

Results

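The genes described here are 44 mouse genes that encode chromatin remodellers, Polycomb proteins, histone-modifying enzymes and the enzymes that write, erase or read DNA methylation. They were taken from a list of 44 names, out of 21887 protein-coding genes in the gene table, and the rule that gives them their peaks uses no measured value. Each gene was given every merged ATAC-seq peak that overlapped its gene record or lay within 10 kb of it on the mouse genome build mm10, which made 174 of the 67945 merged peaks. ATAC-seq measures open chromatin, because a transposase cuts accessible DNA and leaves sequencing adapters there. The libraries came from pancreatic tumour cell clones that had been implanted under the skin of C57BL/6 mice. Tumours were taken 3 weeks later with no treatment, and 50000 tumour cells were sorted from them for each clone. The labels class clones by the T cells of their tumours, and the study compared the open chromatin of the classes. The T cell high class held 6 clones, named 7160c2, 6620c1, 6555c3, 6499c4, 6421c2 and 2838c3. The T cell low class held 7, named 6694c2, 6556c3, 6499c3, 6422c1, 6419c5, 6419c1 and 2699c4. Each clone had 1 library, so a value seen in a single clone had no replicate of that clone, and every p-value measures the spread between clones. Some clones share the number before the c (6419c1 and 6419c5, 6499c3 and 6499c4), and the labels do not say whether such clones come from 1 tumour. They were treated as separate samples, and if they do share a source, the p-values and standard errors rest on fewer independent units than 6 and 7. No genotype is given in the labels.

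BAF complexes use the energy of ATP to slide or evict nucleosomes and so open enhancers and promoters, and the related PBAF complex carries its own targeting subunits. Polycomb repressive complexes keep genes silent: one complex methylates a histone H3 lysine and the other reads that mark and attaches ubiquitin to histone H2A. DNA methyltransferases and TET enzymes set the methylation of CpG sites. In human pancreatic cancer, genes of BAF and of the KMT2 histone methyltransferase family are among the chromatin regulators that are recurrently mutated.

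Total reads in peaks ran from 968296 in 7160c2 to 7369228 in 6419c1. The share of reads in promoter peaks was 43.6 ± 1.84% in T cell high clones and 45.2 ± 3.44% in T cell low clones (SD, n = 6 and 7), with the highest share, 50.7%, in 6499c3. Levels are given as CPM, the reads of a peak scaled to the total of its library. All 5 epithelial marker genes had a tested promoter peak, with a summed level of 77.8 to 208.0 CPM in T cell high clones and 88.7 to 184.0 CPM in T cell low clones. One of them was Epcam, an adhesion molecule of epithelial cells. It had 8.20, 51.0 and 93.1 CPM as the lowest, median and highest T cell high clone, against 8.04, 16.99 and 33.0 CPM in T cell low clones (log2 fold change 1.34 ± 0.39, SE; adjusted p = 0.581 by edgeR). In 6421c2, the clone with 93.1 CPM, tested peaks within 2 Mb were also high, at a median 2.37 times the median clone. The part of that regional level in the Epcam values was not tested. At Krt19, a keratin, the log2 fold change was -0.41 ± 0.27 (SE), with an adjusted p = 0.814 by edgeR. The peaks of Krt19 and of Cdh1, another epithelial marker, were assigned by a gene end and may mark the other end of the gene. Of 9 leukocyte markers, 2 (Ptprc and Cd4, the second assigned by a gene end) had a tested promoter peak, with a summed level of 12.1 to 34.4 CPM in T cell high clones and 9.27 to 27.1 CPM in T cell low clones. The Cd4 peak also lay at a start or end of Gpr162, so its reads cannot be credited to Cd4 alone. Ptprc by itself had 5.03 to 22.8 CPM in T cell high clones and 4.94 to 18.7 CPM in T cell low clones. Of 5 fibroblast markers only Col1a1, also assigned by a gene end, had a tested promoter peak, and 0 of 4 endothelial and 0 of 3 skin markers did. The part of other cells in the results below was not tested, and in sorted populations fewer cells with an open site and less signal per cell cannot be told apart.

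A promoter peak was a peak that overlapped 1 kb to either side of the gene's RefSeq start. For 9 genes without a start entry (Arid2, Smarce1, Cbx2, Kmt2b, Kdm5a, Kdm6b, Nsd1, Hdac1 and Hdac3) either end of the gene record was used, so their peak may mark the other end. In this way 41 of the 44 genes had a promoter peak, 34 by their start and 7 by a gene end, and all 41 passed the filter on low counts. Where a gene had several, the one with the highest mean CPM was kept. Of these promoter peaks 5 also lay at a start or end of another gene: that of Arid2 at Gm38469, Pbrm1 at Gnl3, Brd9 at Trip13, Kdm5a at Ccdc77 and Hdac3 at Rell2. Their reads cannot be divided between both genes. The 3 genes without a promoter peak were Kdm6b, a histone demethylase, with 7 peaks elsewhere and 66.7 CPM on average at the strongest, Nsd1, a histone methyltransferase, with 5 peaks and 31.7 CPM, and Tet1, with 2 peaks and 4.57 CPM. Tet1 encodes an enzyme that oxidises methylated cytosine. The middle of the nearest peak lay 1933 bases from a gene end at Kdm6b and 1886 bases at Nsd1, both without a start entry. At Tet1 it lay 21787 bases from the start. For Kdm6b and Nsd1 the lack of a promoter peak under this rule was therefore not read as a lack of open chromatin.

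The promoters of these genes were rich in G, C and CpG. The RefSeq bases before the start, 250 for each gene on the GRCm38.p6 assembly, could be read for 34 of the 41 genes with a promoter peak. Their median GC content was 70.4% and their median number of CpG sites was 26, against 60.8% and 17 over the 13099 RefSeq starts with a tested peak and 52.4% and 6 over all 32851 starts. A GC box, the letters GGGCGG on either strand, stood in 29 of the 34, or 85.3%, against 60.9% of the starts with a tested peak and 32.7% of all starts. A CCAAT box (CCAAT) stood in 8, or 23.5%, against 35.2% and 33.8%. The ETS letters CCGGAAG stood in 3, or 8.82%, against 13.9% and 6.91%. The E-box CACGTG stood in 2, or 5.88%, against 8.39% and 6.02%. The AP-1 letters TGANTCA stood in 1, or 2.94%, against 4.59% and 6.75%. The CRE letters TGACGTCA stood in 0, against 2.73% and 1.55%. All were searched on both strands, and no search string holds another. A match describes the letters and not binding, and the part of GC content in these shares was not tested. Each of the 34 genes gave 1 start, the one nearest its promoter peak, while the sets beside them hold starts without such a choice. The part of that choice in the differences was not tested.

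The 250 bases before the start are printed 5′ to 3′ for the 5 promoters on which the results below turn: the gains in a single clone at Smarca4 (chr9:21615919-21616168, plus strand) and Brd7 (chr8:88362173-88362422, minus strand), the widest range at Cbx7 (chr15:79932647-79932896, minus strand), and the lowest p-values at Dnmt3a (chr12:3806730-3806979, plus strand) and Tet2 (chr3:133544391-133544640, minus strand). Capitals mark GC boxes and, in Cbx7, the CCAAT box.
Smarca4: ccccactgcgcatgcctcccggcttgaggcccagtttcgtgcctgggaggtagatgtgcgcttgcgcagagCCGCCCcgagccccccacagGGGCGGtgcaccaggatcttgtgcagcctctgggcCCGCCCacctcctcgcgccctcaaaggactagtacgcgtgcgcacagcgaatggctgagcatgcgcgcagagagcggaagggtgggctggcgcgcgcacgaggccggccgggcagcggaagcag
Brd7: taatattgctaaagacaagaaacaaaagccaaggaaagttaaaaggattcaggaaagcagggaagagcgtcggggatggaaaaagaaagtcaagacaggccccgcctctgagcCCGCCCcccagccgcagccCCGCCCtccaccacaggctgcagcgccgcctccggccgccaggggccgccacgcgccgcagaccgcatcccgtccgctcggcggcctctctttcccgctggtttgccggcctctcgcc
Cbx7: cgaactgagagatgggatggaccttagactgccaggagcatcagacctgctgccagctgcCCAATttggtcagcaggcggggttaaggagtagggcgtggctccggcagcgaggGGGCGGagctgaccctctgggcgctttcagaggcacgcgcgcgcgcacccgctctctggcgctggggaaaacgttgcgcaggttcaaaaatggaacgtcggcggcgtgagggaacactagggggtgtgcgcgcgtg
Dnmt3a: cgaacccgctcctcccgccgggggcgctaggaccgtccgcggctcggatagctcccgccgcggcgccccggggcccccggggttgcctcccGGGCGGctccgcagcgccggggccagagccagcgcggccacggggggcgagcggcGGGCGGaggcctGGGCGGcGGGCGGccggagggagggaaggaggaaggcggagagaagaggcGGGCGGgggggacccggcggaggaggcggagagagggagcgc
Tet2: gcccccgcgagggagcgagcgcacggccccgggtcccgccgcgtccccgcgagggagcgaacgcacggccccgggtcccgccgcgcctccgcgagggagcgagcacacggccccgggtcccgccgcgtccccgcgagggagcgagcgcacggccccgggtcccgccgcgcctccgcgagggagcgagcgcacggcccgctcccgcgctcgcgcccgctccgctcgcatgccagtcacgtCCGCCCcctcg
Smarca4 has 3 GC boxes in this stretch, Brd7 has 2, Dnmt3a has 5, and Cbx7 and Tet2 have 1 each. All 5 lie inside their promoter peak.

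No promoter peak was at 0 reads in any clone. The lowest count was 7 reads, at Cbx7, and since no background level was measured, a promoter was not called open or closed in a single clone. Per kb of peak the mean level over the 13 clones ran from 9.62 CPM at Dnmt3b, a DNA methyltransferase of the early embryo, to 59.3 CPM at Ezh2, the main catalytic subunit of the H3 lysine methylating Polycomb complex. The median was 28.1 CPM per kb, against 26.2 over all 11108 tested promoter peaks. To compare clones, the highest CPM was divided by the lowest at each peak. The highest clone was a median 2.44 times the lowest, against 2.84 times over all promoter peaks and 2.67 times over those in the same range of mean CPM. It was under 2 times at 9 genes, from 2 to 3 times at 20 and 3 times or more at 12, or 29.3%, against 44.6% of all promoter peaks. The narrowest range was at Arid1b, a DNA-binding BAF subunit, with 36.0 to 51.6 CPM in T cell high clones and 34.5 to 49.5 CPM in T cell low clones, a ratio of 1.49. The widest was at Cbx7, a reader of the Polycomb mark on histone H3, with a ratio of 10.7 between 25.4 CPM in 6555c3 and 2.38 CPM in 6422c1.

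**Figure D1:**
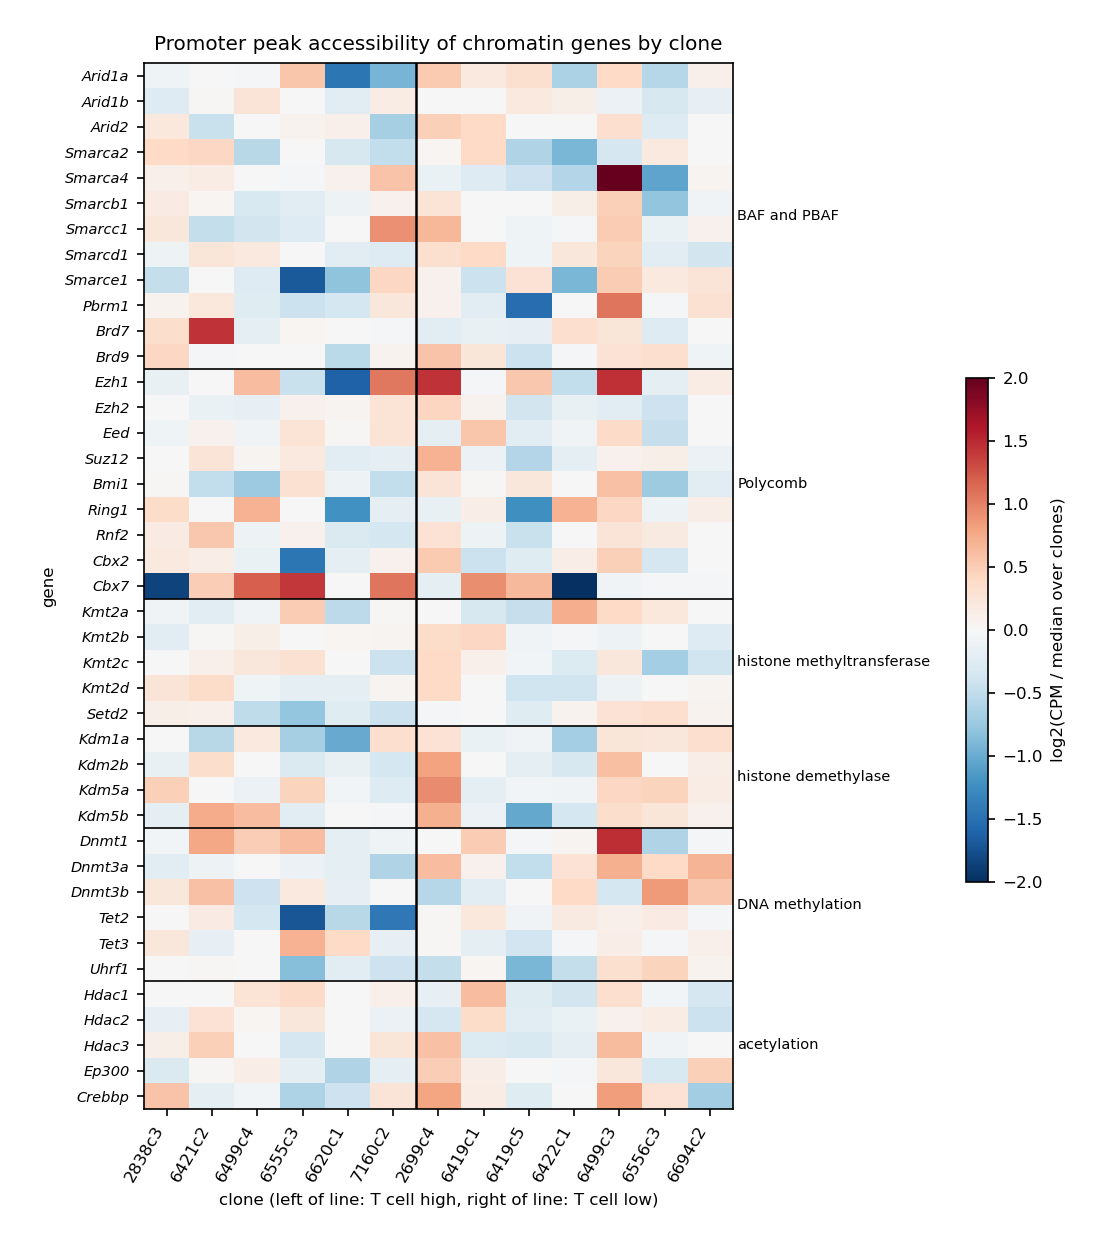
Promoter peak level of 41 genes (rows, grouped by role) in 13 clones (columns, with 6 T cell high clones left of the line and 7 T cell low clones right of it), as log2 of CPM over the gene's median across clones. Values past 2 in size are drawn in the end colours. Smarca4 and Dnmt1 in 6499c3 and Brd7 in 6421c2 are among the high tiles, and Cbx7 in 2838c3 and 6422c1, Tet2 and Smarce1 in 6555c3, Ezh1 in 6620c1 and Pbrm1 in 6419c5 are among the low ones. The classes overlap in each of the 41 genes.

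No member peak differed between the classes at an adjusted p under 0.05 by edgeR's quasi-likelihood test, and neither did any of the 59252 tested peaks (0 called, 0.0%; smallest adjusted p = 0.125). At an unadjusted p under 0.05, 9 of 159 tested member peaks (5.66%) passed, against a background of 6.83% of all tested peaks. DESeq2 called 48 peaks (0.081%) at an adjusted p under 0.05, 1 of them a member peak inside Arid1b that is described below, and 9 member peaks had an unadjusted p under 0.05, against 7.77% of all. With limma-voom 0 peaks were called (0.0%), and 11 member peaks had an unadjusted p under 0.05, against 8.52% of all. At the 41 promoter peaks, 2 had an unadjusted p under 0.05 in edgeR, or 4.88%, against 4.99% of all tested promoter peaks. Both were lower in T cell high clones, as were 3.31% of all promoter peaks, and 0 were higher, against 1.67% of all. The smallest adjusted p of a member promoter was 0.622. These shares were close to the background, so the count is not a result about these genes. The classes overlapped at all 41 promoter peaks, while at 0.126% of all promoter peaks they did not overlap (T cell high above at 0.027% and below at 0.099%).

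Fold changes at the promoters were small. The log2 fold change of T cell high over T cell low was above 0 at 13 genes and below 0 at 28, with a median of -0.12 and a range of -0.56 to 0.57, and over all promoter peaks the median was -0.06 with 39.6% above 0. By role, 3 of 12 BAF and PBAF genes were above 0 (median -0.15), 4 of 9 Polycomb genes (median -0.00), 2 of 5 histone methyltransferase genes with a promoter peak (median -0.06), 1 of 4 histone demethylase genes (median -0.22), 1 of 6 DNA methylation genes (median -0.08) and 2 of 5 acetylation genes (median -0.00). None of these groups had a promoter with an adjusted p under 0.05.

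Among the DNA methylation genes, Dnmt3a and Tet2 had the 2 unadjusted p-values under 0.05. Dnmt3a encodes a methyltransferase that sets new methylation. Its promoter peak lay on chromosome 12 from 3806246 to 3808627 (mm10), with 35.9, 49.1 and 54.7 CPM as the lowest, median and highest T cell high clone, against 39.0, 71.9 and 89.5 CPM in T cell low clones. Of the 7 T cell low clones 6 were above every T cell high clone, and the exception was 6419c5. The log2 fold change was -0.56 ± 0.20 (SE), with an unadjusted p = 0.00906 and an adjusted p = 0.622 by edgeR. It stayed between -0.66 and -0.50 when any 1 library was left out. The regional level, which is the median over tested peaks within 2 Mb of log2 CPM minus its median over clones, was highest at Dnmt3a in 2699c4 (0.49) and 6499c3 (0.47), both T cell low clones. With that level as an offset the log2 fold change was -0.44.

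Tet2 encodes an enzyme that oxidises methylated cytosine. Its promoter peak on chromosome 3 from 133543809 to 133545391 had 20.6, 49.3 and 75.4 CPM as the lowest, median and highest T cell high clone, against 64.3, 72.4 and 78.4 CPM in T cell low clones. The T cell low clones lay close together, while 4 of 6 T cell high clones (6499c4, 6555c3, 6620c1 and 7160c2) were below all of them and 2838c3 and 6421c2 were within their range. The log2 fold change was -0.56 ± 0.24 (SE; unadjusted p = 0.0280 and adjusted p = 0.701 by edgeR). Without 6555c3 it was -0.42 and without 7160c2 it was -0.46, and in both cases, and with the regional offset (-0.38), the unadjusted p was no longer under 0.05. In 6555c3 the regional fold around Tet2 was 0.612, and its part in the low promoter level was not tested. In 7160c2 it was 0.850, with 25 reads in the promoter peak.

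The other DNA methylation promoters overlapped broadly. Dnmt1, which copies methylation after replication, had 22.5, 30.1 and 43.5 CPM in T cell high clones, against 16.8, 25.4 and 70.4 CPM in T cell low clones. Dnmt3b had 11.3, 16.1 and 22.4 CPM, against 10.1, 14.8 and 27.1 CPM. Uhrf1, which brings DNMT1 to hemimethylated DNA, had 24.1, 40.4 and 44.4 CPM in T cell high clones, against 23.1, 44.97 and 59.7 CPM in T cell low clones. Tet3, another TET gene, was the one gene of the group with a fold change above 0, with 30.7, 37.5 and 55.9 CPM in T cell high clones, against 26.4, 33.6 and 37.9 CPM in T cell low clones (log2 fold change 0.25 ± 0.20, SE).

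The largest fold change above 0 was at Cbx7. Its promoter peak on chromosome 15 from 79932263 to 79933012 had 2.65, 16.7 and 25.4 CPM as the lowest, median and highest T cell high clone, against 2.38, 9.27 and 18.1 CPM in T cell low clones. Both classes held a clone with few reads, 2838c3 among the T cell high clones and 6422c1, with 7 reads, among the T cell low clones, and the classes overlapped over most of their range. The log2 fold change was 0.57 ± 0.44 (SE; adjusted p = 0.844 by edgeR), and it ran from 0.36 without 6555c3 to 0.80 without 2838c3. Around Cbx7 the regional fold was 0.907 in 6555c3 and its log2 level was 0 in 6422c1.

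Of the genes of the H3 lysine methylating Polycomb complex, Ezh2 had 87.1, 99.1 and 117.7 CPM in T cell high clones, against 72.8, 87.7 and 130.9 CPM in T cell low clones. Eed, which binds the mark, had 55.8, 61.6 and 71.8 CPM, against 42.9, 56.4 and 87.1 CPM. Suz12, a scaffold subunit, had 38.4, 45.7 and 53.4 CPM in T cell high clones, against 29.7, 41.4 and 72.4 CPM in T cell low clones. In all 3 the T cell high clones lay inside the range of the T cell low clones. Ezh1, the second catalytic subunit, had 14.3 CPM per kb on average, and its CPM was 3.45, 10.04 and 21.9 in T cell high clones, against 7.47, 11.7 and 29.2 CPM in T cell low clones (log2 fold change -0.51 ± 0.41, SE; adjusted p = 0.848 by edgeR).

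Of the ubiquitin ligase complex, Bmi1, a subunit known for repressing a tumour suppressor locus, had 42.3, 57.8 and 86.4 CPM in T cell high clones, against 42.9, 71.5 and 105.9 CPM in T cell low clones (log2 fold change -0.28 ± 0.21, SE). The ligases Ring1 and Rnf2 differed little in median: Ring1 had 7.77, 18.03 and 29.2 CPM, against 7.70, 19.8 and 29.2 CPM. Rnf2 had 41.9, 53.2 and 77.3 CPM in T cell high clones, against 39.0, 53.3 and 65.4 CPM in T cell low clones. Cbx2, another reader of the mark, is described with the single-clone values below.

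Among BAF and PBAF genes, fold changes ran from -0.41 at Smarce1 to 0.40 at Brd7. Smarce1, a shared BAF subunit that binds DNA, had 5.59, 14.03 and 23.9 CPM in T cell high clones, against 9.51, 20.5 and 25.5 CPM in T cell low clones (log2 fold change -0.41 ± 0.32, SE; adjusted p = 0.850 by edgeR). Arid1a, a DNA-binding subunit that is often mutated in human tumours, had 11.2, 29.1 and 44.7 CPM in T cell high clones, against 19.7, 34.7 and 43.9 CPM in T cell low clones (log2 fold change -0.28 ± 0.28, SE; adjusted p = 0.885). The highest and the lowest clone for Arid1a, 6555c3 and 6620c1, were both T cell high. The other ATPase, Smarca2, had 34.7, 45.7 and 67.7 CPM in T cell high clones, against 26.8, 50.7 and 67.1 CPM in T cell low clones. Arid2, Smarcb1, Smarcc1, Smarcd1 and Brd9, which are further subunits, had a ratio of highest to lowest clone from 1.74 at Smarcd1 to 2.62 at Smarcc1.

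Of the enzymes that methylate histones, Setd2, which marks transcribed gene bodies, had 34.4, 47.0 and 64.1 CPM in T cell high clones, against 50.03, 61.8 and 74.7 CPM in T cell low clones. The medians stood apart but the ranges overlapped (log2 fold change -0.33 ± 0.19, SE; adjusted p = 0.778 by edgeR). Fold changes at the KMT2 genes ran from -0.16 at Kmt2a to 0.10 at Kmt2c, and Kmt2b, whose peak was assigned by a gene end, had the narrowest range of the group, with 61.1, 72.4 and 76.8 CPM in T cell high clones, against 59.3, 69.6 and 94.2 CPM in T cell low clones. The histone acetyltransferase gene Ep300 had 31.1, 41.8 and 52.1 CPM in T cell high clones, against 38.3, 51.7 and 66.5 CPM in T cell low clones (log2 fold change -0.33 ± 0.19, SE; adjusted p = 0.778). Its paralog Crebbp had a log2 fold change of -0.28, and the deacetylase genes Hdac1, Hdac2 and Hdac3 had 0.10, 0.11 and -0.00. The demethylase genes Kdm1a, Kdm2b and Kdm5a had -0.27, -0.27 and -0.17, while Kdm5b had 0.14.

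**Figure D2:**
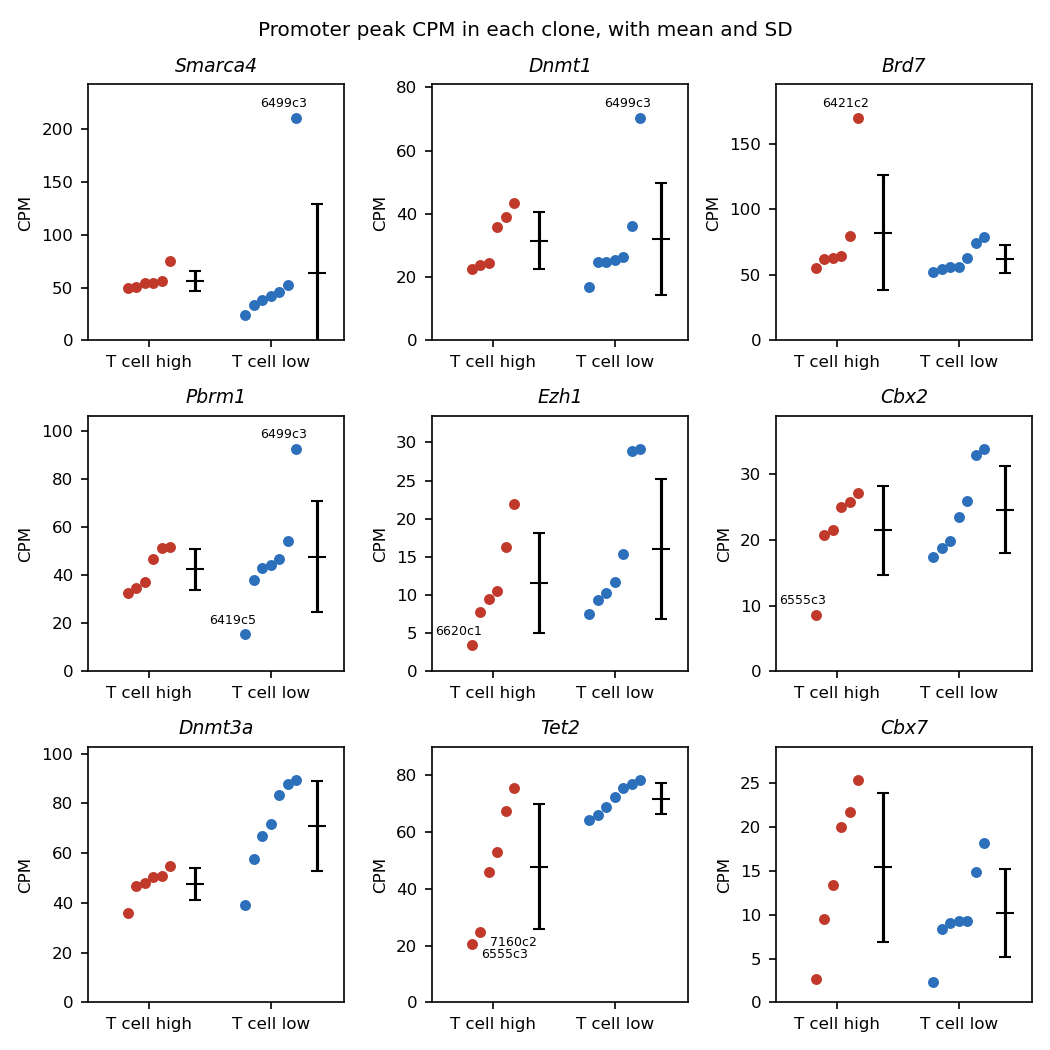
CPM at the promoter peak of 9 genes in each clone (points), with T cell high clones in red on the left and T cell low clones in blue on the right of each panel, sorted by value, and the mean and SD beside them (bars cut at 0). In 6499c3 Smarca4 stood at 210.8 CPM and in 6421c2 Brd7 stood at 169.8 CPM, each far above the other clones, while at Dnmt3a 6 of 7 T cell low clones lay above every T cell high clone and at Tet2 4 of 6 T cell high clones lay below every T cell low clone.

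Single clones were then examined. A gain was called where the highest clone reached at least 2 times the second highest with at least 10 reads, and a loss where the second lowest clone was at least 2 times the lowest and its level would have given at least 10 reads at the lowest clone's depth. By this rule 2 genes had a gain (Smarca4 and Brd7) and 3 had a loss (Pbrm1, Ezh1 and Cbx2). Together that was 12.2% of the 41 promoters, against 5.75% of all tested promoter peaks and 5.0% of those in the same range of mean CPM; gains alone were 1.34% and losses 4.49% of all. Since 5 genes make up this share and no test was run on it, it is a description. After each clone's CPM was divided by its regional level within 2 Mb, 0 member promoters had a gain or a loss. The share of all promoter peaks after the same division is not given here, so this count has no background beside it. Set against the median of the other clones, the divided level was 1.77 times at Smarca4 (4.21 before) and 2.36 times at Brd7 (2.73 before). It was 44.3% at Pbrm1 (33.9% before), 32.5% at Ezh1 (31.0% before) and 45.6% at Cbx2 (35.5% before). The rule counts the distance to the next clone, so a call can end while the distance to the median stays.

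Smarca4 encodes the ATPase BRG1 that drives most BAF complexes. Its promoter peak on chromosome 9 from 21615605 to 21616880 had 210.8 CPM (629 reads) in the T cell low clone 6499c3. The other 12 clones lay between 24.3 CPM in 6556c3 and 74.8 CPM in 7160c2, so 6499c3 was 4.21 times their median. Over the classes the values were 49.5, 54.0 and 74.8 CPM as the lowest, median and highest T cell high clone, against 24.3, 42.4 and 210.8 CPM in T cell low clones. The class comparison turned on that clone: the log2 fold change was -0.20 ± 0.36 (SE; adjusted p = 0.947 by edgeR) with all libraries and 0.49 without 6499c3 (adjusted p = 0.701). Without 6499c3 the unadjusted p by edgeR was under 0.05. It was also under 0.05 in a fit with at most 1 clone per number before the c. That fit left out both 6499c3 and 6499c4, so it is not independent of the fit without 6499c3. The log2 fold change was also above 0 with limma-voom (0.081) and with regional offsets (0.14). Apart from 6499c3, only 6694c2 among the T cell low clones (52.5 CPM) exceeded the lowest T cell high clone.

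The whole neighbourhood of Smarca4 was high in 6499c3. The regional fold there was 2.43 over 149 peaks within 2 Mb and 2.90 over 66 peaks within 0.5 Mb, and divided by the second value Smarca4 stood at 1.58 times the median of the other clones. In steps of 500 kb, the median log2 difference of 6499c3 from the median clone was 1.29 from 1500 to 1000 kb before the promoter, 1.54, 1.61, 1.35 and 1.05 in the next 4 steps, and -0.17 from 1000 to 1500 kb after it. In 6499c4, a T cell high clone whose name has the same number before the c, the same 5 steps were between -0.16 and -0.01. Dnmt1 lies in that stretch, with its promoter peak from 20952026 to 20953310. It had 70.4 CPM (210 reads) in 6499c3, 2.81 times the median of the other clones, with a regional fold of 2.90 within 0.5 Mb, and 0.879 times their median after division by it. Carm1, an arginine methyltransferase of histones from the wider list below, also lies there and had 453.5 CPM in 6499c3, 3.67 times the median of the other clones.

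Brd7, a bromodomain subunit of PBAF, had 169.8 CPM (547 reads) in the T cell high clone 6421c2, at its promoter peak on chromosome 8 from 88360992 to 88362820. The other clones lay between 52.3 and 79.9 CPM, so 6421c2 was 2.73 times their median. The classes had 54.9, 63.3 and 169.8 CPM in T cell high clones, against 52.3, 56.4 and 79.2 CPM in T cell low clones (log2 fold change 0.40 ± 0.23, SE; adjusted p = 0.782 by edgeR), and without 6421c2 the log2 fold change was 0.053. A second peak, 21898 bases from the start inside Brd7, was also highest in 6421c2, with 65.5 CPM (211 reads), 5.60 times the median of the other clones. The regional fold in 6421c2 was 1.16 within 2 Mb and 1.73 over the 27 peaks within 0.5 Mb, a width chosen after seeing the data. After division the promoter was at 2.36 times the median of the other clones with the 2 Mb value and at 1.59 times with the 0.5 Mb value. The regional level in 6421c2 was uneven: the median log2 difference was 0.95 and 1.09 in the 500 kb before and after the promoter, -0.00 from 1500 to 1000 kb before it, and 1.32 from 2500 to 3000 kb after it.

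**Figure D3:**
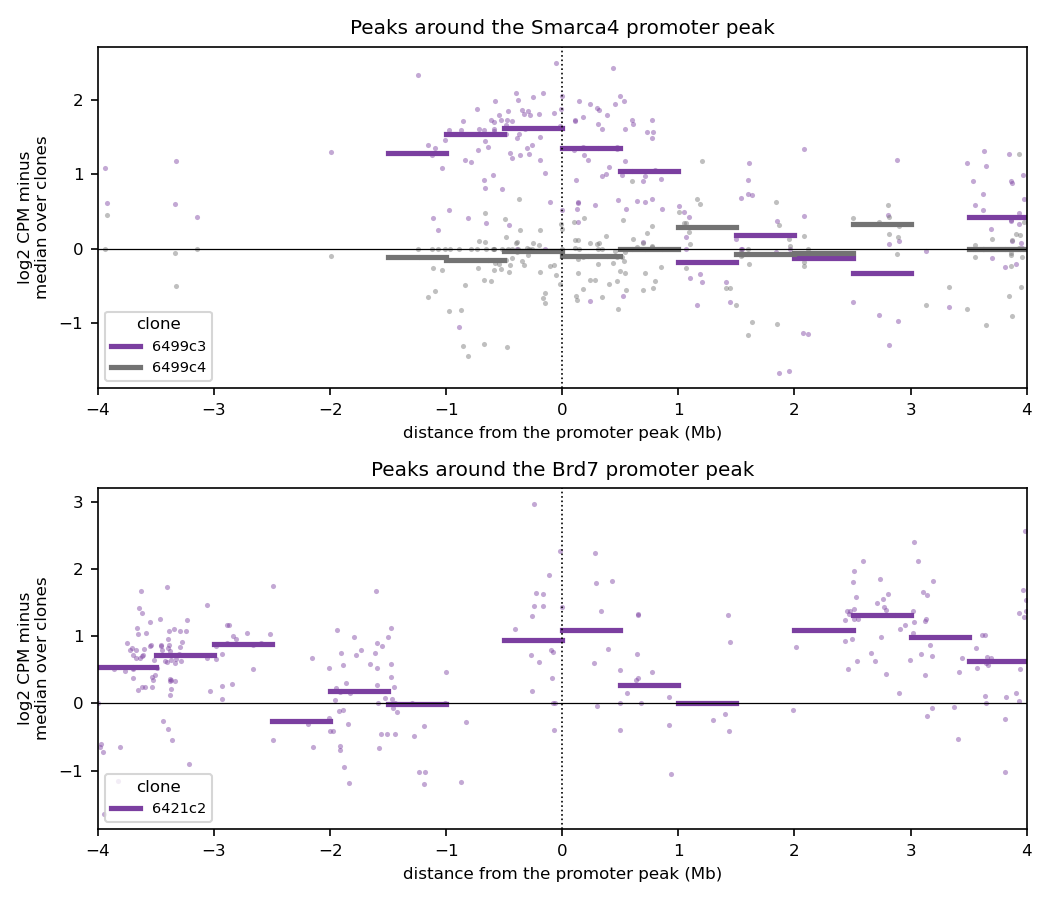
Tested peaks (points) within 4 Mb of the Smarca4 (top) and Brd7 (bottom) promoter peak, by distance in Mb, with log2 CPM minus the median over 13 clones on the vertical axis, and the median of each 500 kb step with at least 5 peaks (bars). At Smarca4 the bars of 6499c3 lay between 1.05 and 1.61 from 1500 kb before to 1000 kb after the promoter, while those of 6499c4 stayed between -0.16 and -0.01 there.

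The 3 losses rested on few reads. Pbrm1, the bromodomain subunit that defines PBAF, had 15.4 CPM (28 reads) in the T cell low clone 6419c5, 33.9% of the median of the other clones, which lay between 32.7 and 92.5 CPM. The regional fold there was 0.844 within 2 Mb and 0.922 within 0.5 Mb, and after division by the second value Pbrm1 was at 38.8% of that median. The same promoter was highest in 6499c3, with 92.5 CPM at a regional fold of 0.983. In 6419c1, which shares its number with 6419c5, Pbrm1 had 37.97 CPM. Without 6499c3 the log2 fold change of Pbrm1 was 0.061, against -0.18 ± 0.27 (SE) with all libraries.

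Ezh1 had 3.45 CPM (8 reads) in the T cell high clone 6620c1, 31.0% of the median of the other clones, at a regional fold of 0.885. Cbx2 had 8.60 CPM (20 reads) in the T cell high clone 6555c3, 35.5% of the median of the other clones, at a regional fold of 0.794. The next lowest clones stood at 7.47 CPM for Ezh1 and 17.4 CPM for Cbx2, so both clones were just past the factor of 2 (2.16 and 2.02 times lower). Nearest outside it was Smarce1 in 6555c3, with 5.59 CPM (13 reads), 1.70 times below the next clone. Cbx7, the gene with the widest range, met neither rule because its 2 lowest clones were close together (2.38 and 2.65 CPM), as were its highest. Counts this low carry a counting error that the rule does not weigh. Over the classes Cbx2 had 8.60, 23.2 and 27.0 CPM in T cell high clones, against 17.4, 23.5 and 33.8 CPM in T cell low clones. The log2 fold change of Cbx2 was -0.20 ± 0.27 (SE), with an adjusted p = 0.921 by edgeR.

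Across the set, 6499c3 was the highest clone at 11 of 41 promoters and 2699c4 at 10, while 6419c5 and 6556c3 were the lowest at 8 each and 6620c1 at 6. How often each clone was highest or lowest over all promoter peaks is not given, so these counts are descriptions. The median log2 difference of the member promoters from the median clone was 0.34 in 6499c3 and 0.29 in 2699c4, against 0.23 and 0.13 over all promoter peaks in the same clones. Those were the clones with the highest shares of reads in promoter peaks (50.7% and 47.9%), and the part of that share in the member levels was not tested. In 6419c5 and 6620c1 the member medians were -0.21 and -0.18, against -0.12 and -0.12 over all promoter peaks, with promoter shares of 41.1% and 40.8%. The member median of 6556c3 was -0.04, against -0.03 over all promoter peaks, in a library of 1030616 reads in peaks.

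Some clones share the number before the c in their name. Between 6499c4 (T cell high) and 6499c3 (T cell low) the log2 ratio of member promoters was above 0 at 7 genes and below 0 at 34, with a median of -0.37, against -0.31 over all promoter peaks. The ratio passed 2-fold at 4 genes, or 9.76%, against 15.8% of all promoter peaks. Between the T cell low clones 6419c1 and 6419c5 the ratio of 6419c1 over 6419c5 was above 0 at 32 genes and below 0 at 9, with a median of 0.28, against 0.26 over all promoter peaks, and it passed 2-fold at 3 genes (7.32%, against 10.6%). Each pair thus differed at these genes about as promoters did in general, and with 1 library a clone no test was made.

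Away from promoters the ratio of highest to lowest clone was larger, at lower levels. Of the 133 other member peaks 118 were tested, and 88 of those lay away from every annotated start or gene end used. Their highest clone was a median 5.23 times the lowest, against 6.76 times over all 46773 such peaks. Their median level was 9.14 CPM, against 42.7 CPM at the member promoter peaks. Ratios were not matched for level here, so the part of counting noise in the larger ratio was not tested. An unadjusted p under 0.05 was found at 7 of 88 (7.95%), 3 higher and 4 lower in T cell high clones, against 7.31% of all such peaks. The median log2 fold change was -0.02, against 0.05 over all. Gains and losses in a single clone were found at 2 and 7 of these peaks, together 10.2%, against 9.28% of all such peaks (gains 3.48% and losses 5.95%).

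The lowest p-value at any member peak was inside Arid1b. The peak lay on chromosome 17 from 5295205 to 5296221, about 300.6 kb from the start of the gene. It had 3.18, 30.2 and 50.3 CPM as the lowest, median and highest T cell high clone, against 0.857, 6.26 and 9.33 CPM in T cell low clones. The T cell high clones 6499c4, 6555c3, 6620c1 and 7160c2 had between 28.9 and 50.3 CPM, above every T cell low clone, while 2838c3 (3.18 CPM) and 6421c2 (4.04 CPM) were within the T cell low range. The log2 fold change was 2.54 ± 0.60 (SE), with an unadjusted p = 0.000346 and an adjusted p = 0.481 by edgeR. DESeq2 gave 2.47 with an adjusted p = 0.0396, and edgeR without 2838c3 gave 2.78 with an adjusted p = 0.0473. The regional level lay between -0.30 and 0.24 on the log2 scale in all clones. Clones of the same number had unlike levels here, with 31.5 CPM in 6499c4 and 2.01 CPM in 6499c3.

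The rest of Arid1b did not share that pattern of values. Its 23 peaks, all tested, had a median log2 fold change of 0.04, and 14 were above 0 and 9 below. The promoter peak had 0.03 ± 0.17 (SE), and the strongest peak of the gene, at 195009 bases from the start, had 87.7 ± 20.6 CPM in T cell high clones and 83.9 ± 18.6 CPM in T cell low clones (SD, n = 6 and 7). One other Arid1b peak had an unadjusted p under 0.05, from 5179972 to 5180705, at a log2 value of -0.999 ± 0.45 for T cell high over T cell low (SE; adjusted p = 0.713 by edgeR), with 0.864, 2.88 and 4.99 CPM in T cell high clones, against 2.78, 5.50 and 12.1 CPM in T cell low clones.

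**Figure D4:**
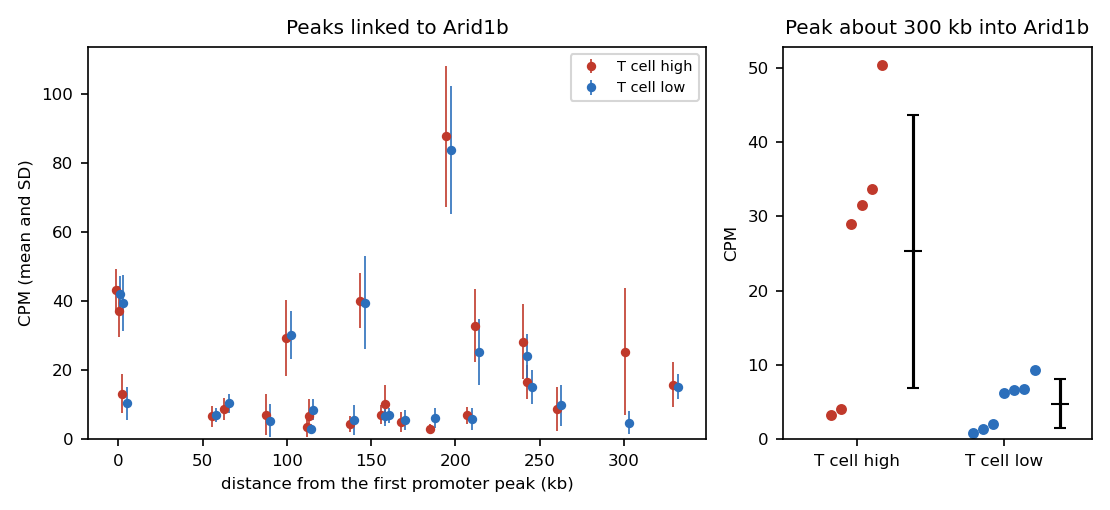
Left, mean CPM and SD at the 23 peaks linked to Arid1b by distance from its first promoter peak in kb, with T cell high clones in red and T cell low clones in blue. Right, CPM of each clone (points, with mean and SD) at the peak about 300 kb into the gene, where 4 of 6 T cell high clones had 28.9 to 50.3 CPM and no T cell low clone exceeded 9.33 CPM.

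The other peaks with the lowest p-values were weak. A peak inside Dnmt3a, on chromosome 12 from 3855720 to 3856475, had 1.86, 4.64 and 5.14 CPM in T cell high clones, against 3.397, 8.04 and 18.7 CPM in T cell low clones (log2 fold change -1.08 ± 0.42, SE; adjusted p = 0.666 by edgeR). This was the same sign as at the Dnmt3a promoter, and 1 of the 5 tested Dnmt3a peaks had a fold change above 0. A peak inside Ezh2 had 6.88, 9.80 and 18.5 CPM in T cell high clones, against 0, 4.71 and 9.35 CPM in T cell low clones (1.10 ± 0.46, SE; adjusted p = 0.696), with the 0 in 6556c3, a shallow library. A peak inside Tet3, 6228 bases from its start, had 7.45, 10.3 and 19.3 CPM in T cell high clones, against 3.85, 5.70 and 11.2 CPM in T cell low clones (0.81 ± 0.35, SE; adjusted p = 0.704). The ranges of the classes overlapped at each of these peaks.

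Outside Smarce1, at 8179 bases from it, a peak had -1.07 ± 0.47 as its log2 fold change (SE; adjusted p = 0.711 by edgeR), and one 7914 bases outside Hdac3, within Diaph1, had -0.90 ± 0.42 (SE; adjusted p = 0.725). The second Brd7 peak named above had 0.91 ± 0.45 (SE; adjusted p = 0.736), and 0.26 without 6421c2. Among gains in a single clone away from the members' promoters, a peak 8403 bases outside Kdm5a had 36.0 CPM in 2838c3, 2.08 times the next clone. Among losses, a peak inside Kdm2b had 1.72 CPM (4 reads) in 6555c3. A peak inside Arid2 had 2.68 CPM (8 reads) in 6499c3, where the regional fold was 0.750. A loss was also called at a second peak in the Tet3 promoter window, with 2.75 CPM (5 reads) in 6419c5. That Tet3 peak is not among the peaks away from promoters counted above.

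A wider list of 112 other chromatin genes was examined in the same way, and 105 had a tested promoter peak. At an unadjusted p under 0.05, 2 passed (1.90%, against 4.99% of all promoter peaks), and 0 had an adjusted p under 0.05. Hdac11, a histone deacetylase family gene, had 31.8, 36.7 and 46.4 CPM as the lowest, median and highest T cell high clone, against 19.2, 29.7 and 32.5 CPM in T cell low clones (log2 fold change 0.50 ± 0.20, SE; adjusted p = 0.682 by edgeR). Ash1l, a histone methyltransferase gene whose peak also lies at Dap3, had 38.4, 46.3 and 69.1 CPM in T cell high clones, against 46.4, 70.3 and 89.6 CPM in T cell low clones (-0.51 ± 0.19, SE; adjusted p = 0.664). The median log2 fold change was -0.07, with 34 above 0. There were 2 gains and 0 losses, or 1.90%, and both gains were in 6499c3: Carm1, and Smarcc2, a BAF core subunit, with 128.4 CPM at a regional fold of 1.88.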

How the data were processed

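Open chromatin was measured by ATAC-seq in 13 clones, and 2 T cell intermediate clones (6422c5 and 7160c5) were not analysed here. The values that the authors deposited were raw counts, 1 whole number for each merged peak and library. They were made with featureCounts 1.5.3 without a pair or strand option, per the file headers, and the alignment names there state duplicate removal. The submitters' processing notes name build mm10 and DESeq2. Steps not given in the sources used here were alignment, peak calling, how peaks were merged, and whether read ends were shifted for the transposase. Reads, not fragments, were therefore counted, and peaks were shared by all clones.

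Peaks were filtered with filterByExpr, scaled by TMM and tested with edgeR 4.0.16 (quasi-likelihood F test, T cell high over T cell low, all 13 libraries, no covariate) in R 4.3.3, with Benjamini-Hochberg adjustment over all 59252 tested peaks. The fit was also run on simulated data, but only with changes larger than any fold change at a member promoter. That run therefore says nothing on the power at such folds. Tested peaks held 97.7% of all reads. CPM uses TMM-scaled library sizes. The SE is the size of the log2 fold change divided by the square root of F. Alternatives were DESeq2 1.42.0, limma-voom 3.58.1, other scaling, no filter, regional offsets and leaving out libraries.

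Fold changes are given for the 10 promoter peaks with the largest ones, every promoter with an unadjusted p under 0.05, the 8 other peaks with the smallest p, and every promoter with a gain or loss. Other genes named were chosen to complete a complex or family. The genes, lists and tests were chosen with earlier results of these data known. Starts and sequences came from RefSeq (GRCm38.p6), and 0 columns of other samples were present.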

Additional observations from a re-analysis of the deposited data

Results flagged for a closer look

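Of 82 groups of values examined at the 41 promoters, 6 held a clone far from the others of its class by Dixon's test, where chance flags about 1 in 20 groups. Smarca4 in 6499c3 had 210.8 CPM, against 24.3 to 52.5 CPM in the other T cell low clones, at a regional fold of 2.43. Dnmt1 in the same clone had 70.4 CPM, against 16.8 to 36.1 CPM, at a regional fold of 2.55. Brd7 in 6421c2 had 169.8 CPM, against 54.9 to 79.9 CPM in the other T cell high clones, at a regional fold of 1.16. Cbx2 in 6555c3 had 8.60 CPM, against 20.7 to 27.0 CPM, at a regional fold of 0.794. Kmt2b in 2838c3 had 61.1 CPM, against 71.0 to 76.8 CPM, at a regional fold of 0.900, and this group was narrow as a whole. Smarca4 in 7160c2, the shallowest library, had 74.8 CPM, against 49.5 to 55.9 CPM, at a regional fold of 0.992. The part of the regional level in these values was not tested.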

How the results depend on the processing

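Of 525 recomputed values 501 kept their direction and their side of the threshold, where the threshold for a single peak was the adjusted p and a count within 1.5 times its value was taken as kept. No promoter passed that threshold in edgeR, so a peak that keeps its side says little about stability. Among all tested peaks the count at an adjusted p under 0.05 was 48 with DESeq2 and 0 to 42 when each library was left out in turn, with the 42 found without 2838c3. Among member peaks it was 1 with DESeq2 and 0 to 1 on leaving out a library (1 without 2838c3), the peak inside Arid1b. The count of member promoters at an unadjusted p under 0.05 ran from 1 (without 6555c3 or without 7160c2) to 4 (without 2838c3). Gains numbered 4 at a ratio of 1.5, 0 at a ratio of 3, and 1 to 2 on leaving out a library (1 without 6421c2 or without 6499c3). Losses numbered 5 at a ratio of 1.5, 0 at a ratio of 3, and 2 to 4 on leaving out a library. Divided by the regional level, gains numbered 0 and losses 0, both within 2 Mb and within 0.5 Mb, a width chosen after seeing the data. Shares over all promoter peaks are not given for these other ratios, left-out libraries and divided levels, so the counts are descriptions. The fit over promoter peaks alone was also chosen after seeing the data. The sign of the log2 fold change turned at Smarca4 and at Pbrm1. At Smarca4 it was 0.52 with at most 1 clone per number, 0.14 with regional offsets and 0.081 with limma-voom. On leaving out a library it ran there from -0.33 to 0.49 (0.49 without 6499c3). The fit that gave 0.52 left out 6499c3 and 6499c4, so it is not independent of the fit without 6499c3. At Pbrm1 the log2 fold change ran from -0.33 to 0.061 on leaving out a library (0.061 without 6499c3). DESeq2 gave no p-value and no adjusted p for 1 member peak, the promoter peak of Smarca4, so its counts do not cover that peak. The median ratio of highest to lowest clone stayed between 2.36 and 2.44 on leaving out a library.

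No paired analysis was possible because the classes share only 1 number before the c, and numbers given in accession order do not pair clones. The losses rest on 8 to 28 reads in 1 library each.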

Other observations

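Outside the comparisons, 15 of the 174 member peaks did not pass the filter on low counts and were not tested. Of the 133 peaks that were not the main promoter peak, 5 lay in a promoter window, 78 inside the gene record and 50 outside it, and 27 lay at a start or end of another gene. One of these, between Bmi1 and Commd3, had 20.5 CPM (22 reads) in the T cell low clone 6556c3, against 43.3 to 80.1 CPM in the other T cell low clones. Another, 9582 bases outside Brd9 and within Zdhhc11, had 4.32 CPM (10 reads) in the T cell high clone 6620c1, against 9.62 to 42.4 CPM in the other T cell high clones.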
